A study of Mus musculus with 15 samples.

Results

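Aminoacyl-tRNA synthetases are the enzymes that load each amino acid onto its tRNA, and their mRNAs were followed here in mouse CD8+ T cells. The 36 members are the genes with these symbols that are listed in both deposited expression tables, 20 for enzymes of the cytosol and 16 for enzymes of the mitochondria, whose symbols end in ars2. They are 36 of 11262 genes in the table of naïve and TCR activated cells and of 11211 genes in the table of cytotoxic T lymphocytes (CTL), which have 10637 genes in common. All 36 had a value above 0 in every library.

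All cells came from mice with the LCMV-P14 TCR transgene, so that their CD8+ T cells carry a receptor for the viral peptide gp33-41. In the first table, lymph node cells of 3 mice (female, 9 to 13 weeks old by the study's methods) were pooled per replicate and divided between 3 groups, with 3 replicates per group. Naïve CD8+ cells were taken ex vivo and, by the study's methods, sorted on a naïve surface phenotype. TCR activated cells had received gp33-41 (100 ng/ml) for 24 h, together with the cytokines IL-2 (20 ng/ml) and IL-12 (2 ng/ml). The third group was activated in the same way in the presence of 10 µM IC87114, an inhibitor of the p110δ subunit of phosphoinositide 3-kinase (PI3Kdi). By the study's methods the cells of both activated groups were sorted only as living CD8+ cells. Activated and naïve cells thus differed in peptide, cytokines, culture and sort, and the parts of these cannot be told apart. In the second table, CTL were made from P14 mice of unstated age by activation for 48 h and 4 days of culture in 20 ng/ml IL-2. On day 6 the CTL were washed and either given 20 ng/ml IL-2 again or left without IL-2 for 24 h, with 3 replicates per group. Both CTL groups had therefore been activated and grown in IL-2 before the wash, and the labels name no sort for them. The series record says of the CTL libraries that they were sequenced in the same lane.

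Each amino acid is joined to its tRNA by its own synthetase, at the cost of ATP, before the ribosome can use it. The mitochondria translate their own small genome and have a separate set of synthetases, which are encoded in the nucleus and imported. Lysyl-tRNA synthetase (Kars) and glycyl-tRNA synthetase (Gars) are known to serve both compartments from a single gene. T cells leave quiescence with a large increase in cell size and protein synthesis, which raises the demand for charged tRNA.

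The values are FPKM, read counts scaled to library size and divided by the exon length of the gene, so that levels can be compared between genes. A fold change is given on the scale of log2(FPKM + 0.1), with the standard error (SE) of the limma fit over all genes of a table. A gene was called changed at a Benjamini-Hochberg adjusted p under 0.05 and a fold change above 2 or below 0.5. The tables were normalised separately, and no test was made between them. Read totals per library are not given in the sources used here, so the counting error behind a value is unknown. The lowest Pearson r between replicates of a group, across all genes, lay between 0.983 and 0.99. All 7 CD8 T cell markers of a list were read in every group, and their summed level was lowest in TCR activated cells, at 876 to 919 FPKM. Of the markers of other cells, the B cell genes summed to 20.9 to 26.3 FPKM in naïve cells and to 4.63 to 7.12 FPKM after TCR activation. Their part in the results was not tested. RNA was taken from bulk cells, in which less RNA per cell and fewer cells that express a gene cannot be told apart.

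In naïve cells the cytosolic enzymes had a median level of 39.8 FPKM and the mitochondrial enzymes one of 11.7 FPKM. The cytosolic levels ran from 10.7 FPKM for Cars, the cysteinyl enzyme, to 69.6 FPKM for Kars. Kars was at 64.8, 73.0 and 70.8 FPKM in the 3 naïve libraries, above each library of Qars, the glutaminyl enzyme, which was next in order at 56.6, 63.1 and 60.4 FPKM. Below these the order was close. Of the 19 neighbours in the order of the cytosolic enzymes, 15 pairs had ranges that overlapped over the 3 libraries. The mitochondrial levels ran from 3.51 FPKM for Nars2, the asparaginyl enzyme, to 74.3 FPKM for Lars2, the leucyl enzyme, and 9 of 15 neighbouring pairs overlapped. Kars stayed the highest cytosolic enzyme in TCR activated cells, with PI3Kdi and in CTL without IL-2, while Gars had the highest mean in CTL in IL-2, at 174 FPKM against 166 FPKM for Kars. Cars was the lowest in all 5 groups.

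**Figure D1:**
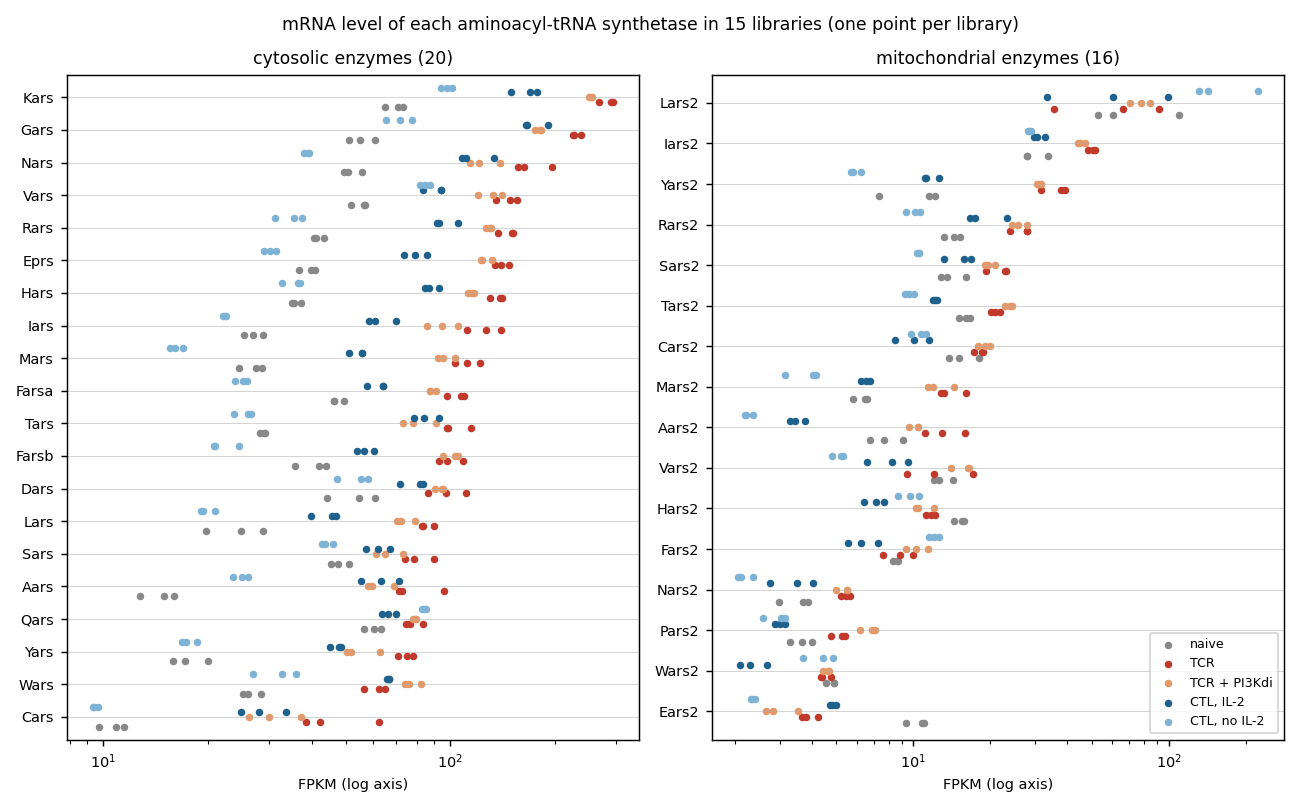
FPKM of each enzyme on a log axis, with 1 point per library and colours for the 5 groups, cytosolic enzymes on the left and mitochondrial enzymes on the right, each ordered by the mean in TCR activated cells. The cytosolic points of TCR activated cells lie to the right of those of naïve cells in all 20 rows, and the points of CTL without IL-2 lie to the left of those of CTL in IL-2 in 18 of 20 rows.

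TCR activation raised the mRNA of nearly all cytosolic synthetases. Of the 20, 17 were called higher and 0 lower, where 25.0% of all genes tested were called higher and 23.7% lower. The median log2 fold change was 1.83, a 3.54-fold rise, against 0.01 over all genes. The other 3, Dars, Sars and Qars, were also higher at an adjusted p under 0.05 but by less than 2-fold. In all 20 enzymes every TCR activated library was above every naïve library, which was so for 40.7% of all genes, while 40.0% of all genes were lower in this sense.

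The largest rise was in Aars (chromosome 8 of mm10 from 111033144 to 111057664), the alanyl enzyme. It was at 12.8, 15.0 and 16.02 FPKM in the naïve libraries and at 95.7, 72.7 and 71.0 FPKM in the TCR activated libraries. The groups were far apart, and the first activated library was the highest. The log2 fold change of Aars was 2.44 (SE 0.13, adjusted p = 1.3e-08), a 5.41-fold rise. A part of the Aars exons overlaps the gene Exosc6 on the same strand, and 13.2% of its stretches of 75 bases are found in other transcripts.

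Iars (chromosome 13 from 49682100 to 49734267), the isoleucyl enzyme, was at 27.0, 25.4 and 28.9 FPKM in naïve cells and at 140.1, 127 and 111 FPKM after activation. This was a 4.62-fold rise (log2 fold change 2.21, SE 0.11, adjusted p = 5.5e-09). Cars (chromosome 7 from 143557230 to 143600090) went from 9.73, 11.5 and 10.9 FPKM to 62.5, 42.1 and 38.4 FPKM. Its rise of 4.34-fold had a larger error (log2 fold change 2.12, SE 0.18, adjusted p = 5.3e-07), and the first activated library stood above the others. Yars (chromosome 4 from 129189760 to 129219607), the tyrosyl enzyme, rose 4.19-fold from 17.3, 20.1 and 15.9 FPKM to 77.9, 74.9 and 70.6 FPKM (log2 fold change 2.07, SE 0.11, adjusted p = 1.3e-08). Aars, Cars and Yars had the 3 lowest naïve means of the class, and Cars and Yars also had the lowest means over all libraries.

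The enzymes with the highest levels rose as well. Kars (chromosome 8 from 111993443 to 112011323) reached 268, 290.4 and 294 FPKM in the TCR activated libraries, 4.08-fold above naïve cells (log2 fold change 2.03, SE 0.08, adjusted p = 8.2e-10). Gars (chromosome 6 from 55038007 to 55079500) went from 51.0, 60.9 and 55.0 FPKM to 238, 225 and 227 FPKM, a 4.14-fold rise. No naïve library came near an activated one in either gene.

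At the other end stood Qars (chromosome 9 from 108507706 to 108515941). It moved from 56.6, 63.1 and 60.4 FPKM to 83.2, 76.5 and 74.6 FPKM, a 1.30-fold difference (log2 fold change 0.38, SE 0.08, adjusted p = 6.5e-04). Sars, the seryl enzyme, went from 45.4, 50.9 and 47.6 FPKM to 89.7, 78.8 and 74.0 FPKM, 1.68-fold. Dars, the aspartyl enzyme, had a log2 fold change of 0.89 and came to 1.02 when the libraries were scaled to a common median, which called it changed. That scaling moved the median log2 fold change of all genes from 0.01 to 0.13. The remaining cytosolic enzymes, those for glutamate and proline (Eprs), phenylalanine (Farsa and Farsb), histidine, leucine, methionine, asparagine, arginine, threonine, valine and tryptophan, had log2 fold changes from 1.14 in Farsa to 2.06 in Mars.

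In animal cells 8 of these enzymes are held in a large complex, the multisynthetase complex. Of these 8, 6 were called higher on TCR activation, and the exceptions Dars and Qars both belong to it. Of the 12 cytosolic enzymes outside the complex, 11 were called higher, the exception being Sars. The median log2 fold changes were 1.83 inside and 1.78 outside the complex. Both subunits of the phenylalanyl enzyme rose by similar amounts, with log2 fold changes of 1.14 for Farsa and 1.30 for Farsb (SE 0.07 and 0.10).

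Since the cytosolic enzymes moved together, the DNA around their starts was read for 2 short motifs, on both strands. The first is TGATGNAA, the core of the element bound by ATF4, a transcription factor of the amino acid response. The second is CACGTG, the E-box bound by MYC with MAX. The windows were those of RefSeq on GRCm38.p6 (the assembly also named mm10), from 250 bases before to 50 bases after each start, and 13 of 20 cytosolic and 14 of 16 mitochondrial enzymes were matched. Those not matched were Cars, Hars, Lars, Nars, Rars, Vars, Wars, Hars2 and Pars2. TGATGNAA was found in 5 of 13 cytosolic genes (38.5%) and 0 of 14 mitochondrial genes, and in 4.51% of all 27025 genes with a window (3.97% of all 32851 windows). CACGTG was found in 4 of 13 cytosolic genes (30.8%) and 1 of 14 mitochondrial genes (7.14%), and in 8.09% of all genes with a window (7.15% of all windows). Matches of the motifs did not overlap each other. A match describes the letters only and shows no binding. Matches are printed on the strand of the gene in runs of 30 bases with the match in capitals, so that a match on the other strand reads as its reverse complement. The number before each sequence is the position of the first capital from the start, where the first transcribed base is 1. Kars, Mars and Eprs, which rose by 4.08-fold, 4.16-fold and 3.60-fold, had a window and held neither motif. The genes with TGATGNAA were enzymes that rose by 3.57-fold or more, and a match in each of the 5 is shown:
Aars, chr8:111033840-111033869, plus strand, position 10: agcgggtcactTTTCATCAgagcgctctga
Gars, chr6:55037960-55037989, plus strand, position -30: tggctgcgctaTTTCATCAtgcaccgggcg
Iars, chr13:49682126-49682155, plus strand, position 8: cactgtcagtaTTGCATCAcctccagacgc
Tars, chr15:11399655-11399684, minus strand, position -15: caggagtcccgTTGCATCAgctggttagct
Yars, chr4:129189895-129189924, plus strand, position 4: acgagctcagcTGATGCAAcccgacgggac
The 5 matches of CACGTG include the only mitochondrial gene with either motif, Ears2, which fell on activation:
Aars, chr8:111033684-111033713, plus strand, position -146: agtcaaccctgtCACGTGacactccatgtc
Farsb, chr1:78488919-78488948, minus strand, position -39: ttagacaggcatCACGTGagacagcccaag
Iars, chr13:49682049-49682078, plus strand, position -69: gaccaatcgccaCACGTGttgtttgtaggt
Tars, chr15:11399622-11399651, minus strand, position 20: tccgcctgtggcCACGTGgcgcacgcgcag
Ears2, chr7:122067048-122067077, minus strand, position 22: cgcgaaggagccCACGTGtgtgtttctagt

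The mitochondrial enzymes changed less and in both directions. Of the 16, 2 were called higher on TCR activation and 1 lower, and the median log2 fold change was 0.44. Without the limit on the fold change 9 were higher and 2 lower at an adjusted p under 0.05, where 40.9% of all genes were higher and 39.8% lower. In these 11 enzymes the activated and naïve libraries did not overlap, which was so for 40.7% (higher) and 40.0% (lower) of all genes, and in the other 5 they did.

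Yars2 (chromosome 16 from 16302965 to 16309640), the mitochondrial tyrosyl enzyme, was the largest rise of this class. It was at 11.5, 12.2 and 7.31 FPKM in naïve libraries and at 31.6, 37.8 and 39.2 FPKM after activation. The rise was 3.55-fold (log2 fold change 1.83, SE 0.17, adjusted p = 1.2e-06), near the median of the cytosolic enzymes. Mars2, for methionine, rose 2.21-fold from 6.44, 6.56 and 5.81 FPKM to 12.9, 13.2 and 16.0 FPKM (log2 fold change 1.14, SE 0.13, adjusted p = 6.3e-06). Rars2, for arginine, went from 13.1, 14.4 and 15.2 FPKM to 27.9, 27.8 and 24.0 FPKM, 1.86-fold, and passed the limit only with median scaling, at a log2 fold change of 1.02. Iars2, for isoleucine, was the second most abundant enzyme of its class and went from 27.9, 33.5 and 27.7 FPKM to 51.5, 50.3 and 48.4 FPKM, 1.69-fold. A gene on the other strand of Iars2, Rab3gap2, shares exon sequence with it, and 22.1% of its stretches of 75 bases are found in other transcripts. Whether reads were counted by strand is not given in the sources used here.

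Ears2 (chromosome 7 from 122037213 to 122067263), the mitochondrial glutamyl enzyme, fell. It was at 10.9, 11.01 and 9.33 FPKM in naïve libraries and at 3.80, 3.68 and 4.23 FPKM after activation, which is 2.62-fold lower (log2 fold change -1.39, SE 0.14, adjusted p = 3.2e-06). Hars2, for histidine, was lower by less than 2-fold, from 15.5, 15.7 and 14.5 FPKM to 11.2, 11.8 and 12.1 FPKM (log2 fold change -0.38, SE 0.10, adjusted p = 0.004). Hars and Hars2 lie head to head, with 195 bases of overlap at their 5′ ends, and the cytosolic Hars rose 3.80-fold in the same libraries.

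Lars2 (chromosome 9 from 123366927 to 123462666) varied more between replicates than it differed between groups. It was at 60.7, 109 and 52.8 FPKM in naïve cells and at 35.5, 91.1 and 66.0 FPKM after activation, and the groups overlapped (log2 fold change -0.24, SE 0.32, adjusted p = 0.50). None of its stretches of 75 bases is found in another annotated transcript. Of the enzymes with the lowest levels, Nars2 moved from 3.69, 3.86 and 2.98 FPKM to 5.23, 5.46 and 5.67 FPKM. Wars2, for tryptophan, was at 4.88, 4.87 and 4.54 FPKM and then at 4.40, 4.75 and 4.36 FPKM, and its groups overlapped.

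**Figure D2:**
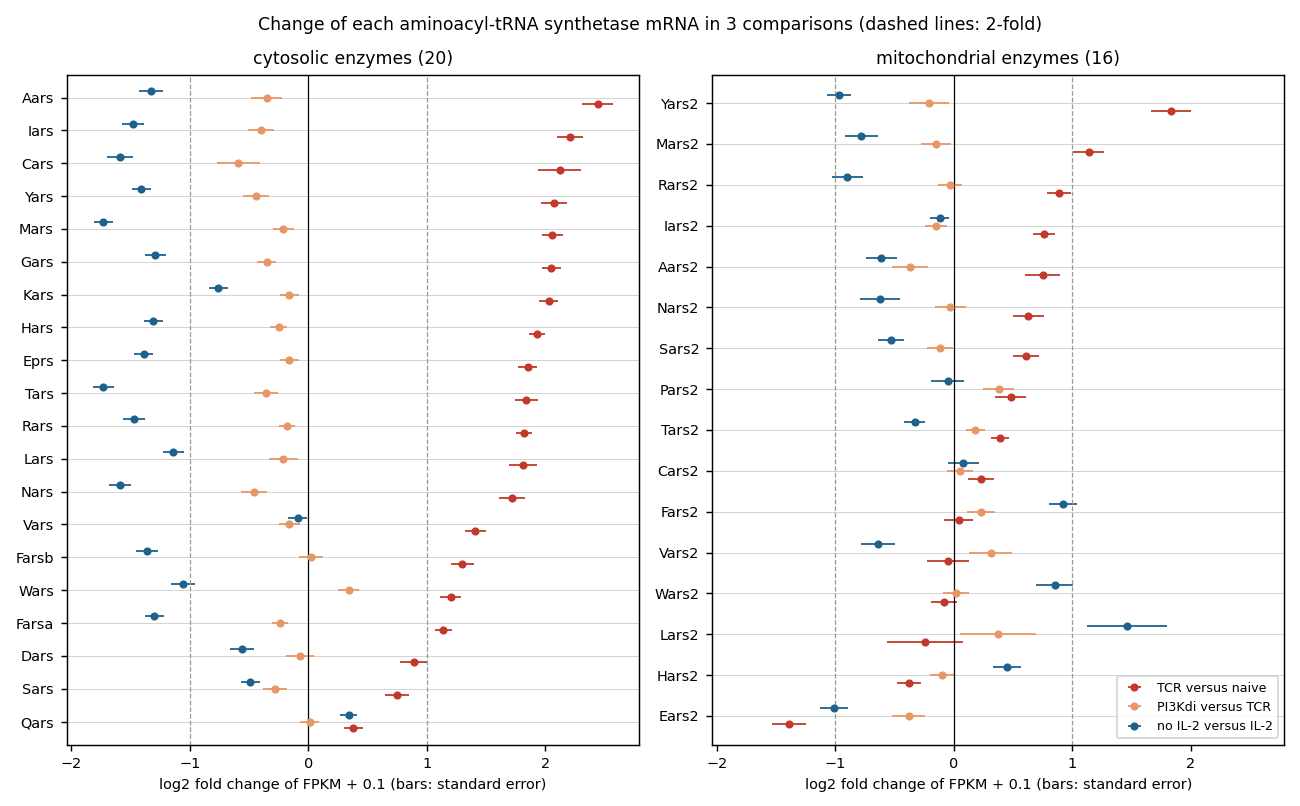
Log2 fold change of FPKM + 0.1 with its standard error for each enzyme in 3 comparisons, ordered by the change on TCR activation; dashed lines mark 2-fold. On activation 17 of 20 cytosolic enzymes lie above the upper line, PI3Kdi leaves all 36 between the lines, and without IL-2 15 of 20 cytosolic enzymes lie below the lower line.

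Summed over the class, the cytosolic enzymes were at 752, 815 and 757 FPKM in the naïve libraries and at 2469, 2416 and 2345 FPKM after TCR activation. The means were 775 ± 35.2 and 2410 ± 62.5 FPKM (SD, n = 3), or 0.170% and 0.504% of all FPKM in the table. The mitochondrial sum, taken without Lars2 because of its spread, was 173 ± 4.04 FPKM in naïve cells and 253 ± 2.58 FPKM after activation (SD, n = 3). The ratio of the cytosolic to this mitochondrial sum went from 4.47 ± 0.144 to 9.51 ± 0.153 (SD, n = 3). With Lars2 included the ratio was 3.16 ± 0.287 in naïve cells and 7.63 ± 0.753 after activation, and the groups did not overlap in either form. A comparison of 3 with 3 libraries cannot give an exact permutation p below 0.10, and no test was made on the sums.

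**Figure D3:**
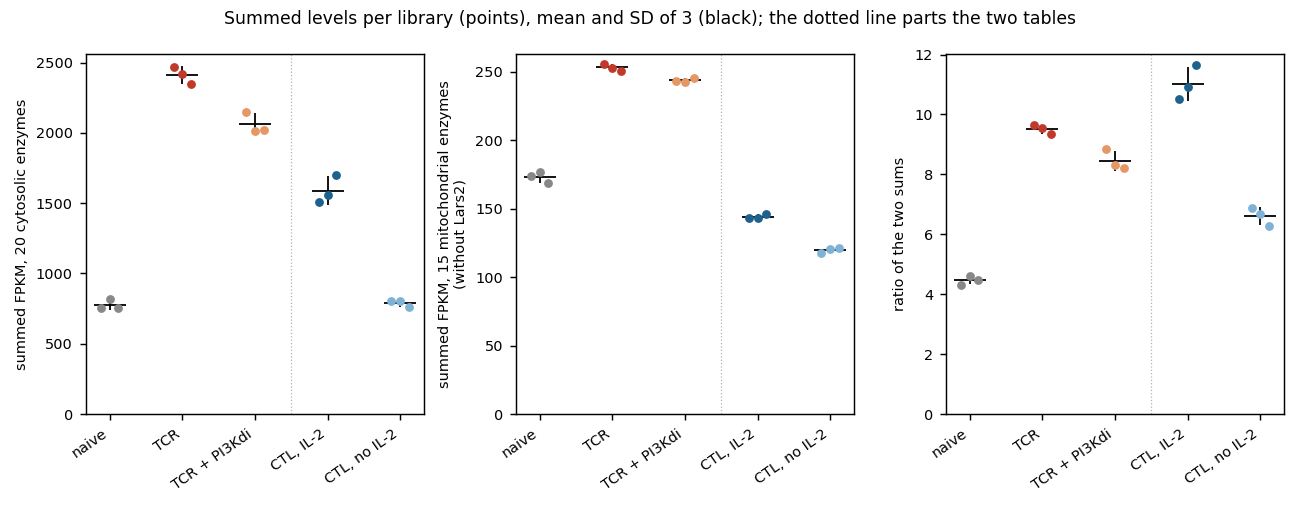
Summed FPKM of the cytosolic enzymes (left), of the mitochondrial enzymes without Lars2 (middle) and the ratio of these sums (right) for each library, with the mean and SD of 3 in black; the dotted line parts the tables, which were normalised separately. Without Lars2 the ratio is lowest in naïve cells and the groups do not overlap. With Lars2, which is not plotted, the mean is lowest in CTL without IL-2 (2.82, against 3.16 in naïve cells). The libraries of these groups overlap (2.33 to 3.25 in CTL without IL-2, 2.85 to 3.415 in naïve cells). With Lars2 the libraries of CTL in IL-2 (6.22 to 8.85) also overlap those of TCR activated cells (7.02 to 8.47) and of PI3Kdi (6.11 to 6.86).

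For 13 amino acids both compartments have an enzyme of the same name, so the ratio of the cytosolic to the mitochondrial mRNA could be taken within each library. It was higher in every TCR activated library than in every naïve library in 11 of the 13 pairs and lower in 0. How often ratios of other gene pairs separate in this way is not given here. The counts of pairs, in this and the later comparisons, therefore cannot be set against such a share. The ratio of Hars to Hars2 moved most, from 2.29, 2.37 and 2.42 in naïve libraries to 11.6, 11.9 and 11.7 after activation, a 4.96-fold change. The ratio of Aars to Aars2 went from 1.67, 2.22 and 1.75 to 6.01, 5.61 and 6.39. The pairs that overlapped were Sars with Sars2, at 2.97 to 3.96 in naïve cells and 3.25 to 4.11 after activation, and Yars with Yars2, at 1.51 to 2.18 and 1.80 to 2.47. In the first of these the rise of both enzymes was small, and in the second it was large.

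**Figure D4:**
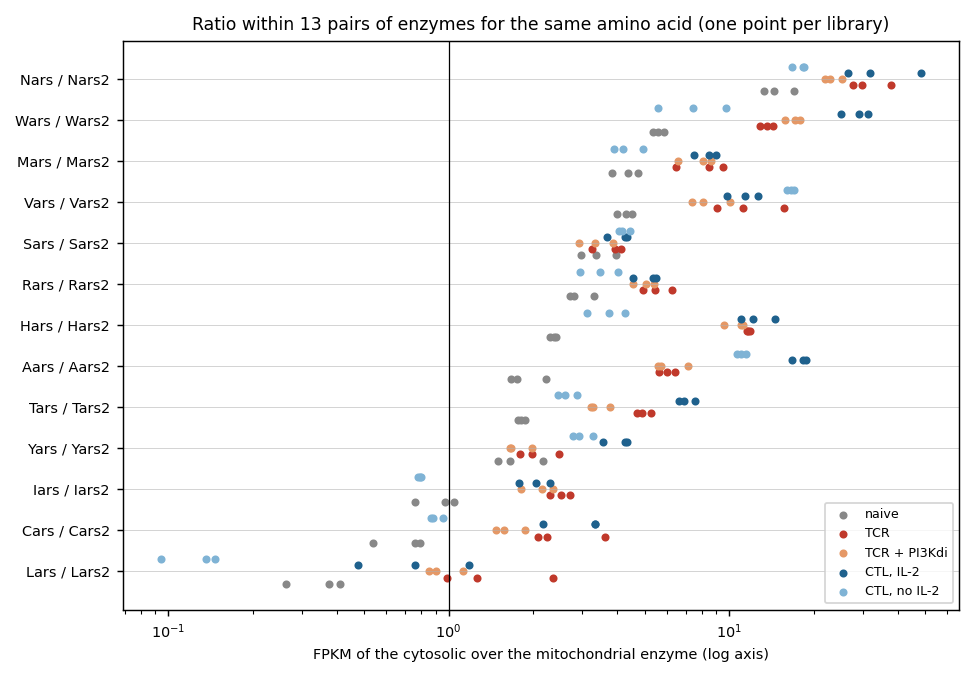
Ratio of the FPKM of the cytosolic to the mitochondrial enzyme for 13 amino acids on a log axis, with 1 point per library and colours for the 5 groups, ordered by the naïve mean. TCR activated points lie to the right of naïve points in 11 pairs, and points of CTL without IL-2 lie to the left of those in IL-2 in 11 pairs and to the right for Vars with Vars2.

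The comparison with PI3Kdi asks how much of this response needs p110δ. No enzyme changed by 2-fold when PI3Kdi was present during activation: 0 of 36 were called by the limma fit, where 3.04% of all genes were called higher and 2.1% lower. Small differences were found in the cytosolic class. Without the limit on the fold change 8 cytosolic enzymes were lower and 1 was higher at an adjusted p under 0.05, where 8.19% of all genes were lower and 9.35% higher, and 0 of 16 mitochondrial enzymes passed in either direction. In 15 of 20 cytosolic enzymes every library with PI3Kdi was below every library without it, which was so for 18.6% of all genes. The median log2 fold change was -0.23 for the cytosolic and -0.03 for the mitochondrial enzymes, against -0.01 over all genes. At an unadjusted p under 0.05 there were 13 cytosolic and 3 mitochondrial enzymes. The share of all genes under this rule is not given here, so these counts cannot be set against it. Other genes moved in the same libraries: the summed level of 4 CTL genes (Gzmb, Gzma, Prf1 and Il2ra) was 3000 to 4732 FPKM after TCR activation and 869 to 1103 FPKM with PI3Kdi, and that of 3 naïve cell markers (Ccr7, Lef1 and Tcf7) 273 to 317 FPKM and 338 to 442 FPKM. Not all members of these sums moved. The mean of Gzmb went from 3147 to 379 FPKM, while Il2ra was at 557 and 563 FPKM. Prf1 was at 18.1 and 6.07 FPKM and Gzma at 2.14 and 1.70 FPKM. Of the naïve cell markers, Ccr7 was at 131 and 198 FPKM, Tcf7 at 126 and 166 FPKM and Lef1 at 32.4 and 31.7 FPKM. The part of these genes in the results was not tested.

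The 8 lower enzymes were Cars, Farsa, Gars, Hars, Iars, Nars, Tars and Yars, with log2 fold changes from -0.59 to -0.24. They are named because they passed the test, after their values were seen. Cars was at 37.2, 29.99 and 26.4 FPKM with PI3Kdi, below the 38.4 FPKM of the lowest library without it (log2 fold change -0.59, SE 0.18, adjusted p = 0.042). Gars was at 183, 176 and 182 FPKM with PI3Kdi, where all 3 libraries without it were at 225 FPKM or above (log2 fold change -0.35, SE 0.08, adjusted p = 0.012). Nars, for asparagine, was at 139, 121 and 114 FPKM with PI3Kdi and at 197, 163 and 157 FPKM without it (log2 fold change -0.46, SE 0.11, adjusted p = 0.013). These calls depended on the fit and on single libraries. With no intensity trend in the fit 3 cytosolic enzymes were lower, and with only the TCR activated and PI3Kdi libraries fitted there were 5. Without replicate 2 of the PI3Kdi group 0 cytosolic enzymes were lower, without its replicate 3 there was 1, and without replicate 2 of the TCR activated group there were 3. Wars did not pass without replicate 2 or without replicate 3 of the PI3Kdi group. With the replicate number as a block, which pairs same-numbered libraries, 6 were lower, since Farsa and Hars came to adjusted p-values of 0.055 and 0.051.

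Wars (chromosome 12 from 108860030 to 108894174), the tryptophanyl enzyme, was the only synthetase that was higher with PI3Kdi at an adjusted p under 0.05. It was at 56.5, 64.8 and 62.4 FPKM after TCR activation and at 74.3, 75.9 and 82.6 FPKM with PI3Kdi, and the groups did not overlap. The log2 fold change was 0.34 (SE 0.09, adjusted p = 0.019), a 1.27-fold difference, and the adjusted p was under 0.05 in 14 of 16 settings with a highest value of 0.080. Wars is known as a gene that responds to interferon γ. Of 19 other interferon γ responsive genes of a list, 10 were called higher with PI3Kdi and 1, Cxcl10, lower, where 3.04% and 2.1% of all genes were, and their median log2 fold change was 1.01. Without the limit on the fold change 14 were higher and 2, Irf8 and Cxcl10, lower, where 9.35% and 8.19% of all genes were. On TCR activation, where Wars rose 2.30-fold, 3 of the 19 were called higher and 7 lower, with a median of -0.81. The shares of all genes there were 25.0% and 23.7%. Without IL-2 0 were called higher and 5 lower, with a median of -0.49, where 14.3% and 13.9% of all genes were. The relation of Wars to these genes was not tested.

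Measured from naïve cells, activation with PI3Kdi called 16 of 20 cytosolic enzymes higher and 0 lower, where 23.6% of all genes were higher and 21.3% lower. The difference from activation alone was Farsa, at a log2 fold change of 0.91. All 20 were higher without the limit on the fold change and in every library, where 40.1% and 41.9% of all genes were. Among the mitochondrial enzymes Yars2 was higher and Ears2 lower, and Mars2 was just under the limit at 0.99 and passed it in 6 settings, among them median scaling (1.08). Both comparisons with naïve cells share the naïve libraries. For the 17 cytosolic enzymes called higher on activation, the mean level with PI3Kdi stood at 55.4% (Cars) to 147% (Wars) of the rise from naïve cells, with a median of 78.1%. The summed cytosolic level with PI3Kdi was 2150, 2013 and 2019 FPKM, below each library without it, and its mean of 2061 ± 77.6 FPKM (SD, n = 3) lay between those of naïve and TCR activated cells. The mitochondrial sum without Lars2 was 244 ± 1.85 FPKM (SD, n = 3), also below each library without PI3Kdi. As a share of all FPKM this sum did not fall. It was 0.0538% to 0.0540% with PI3Kdi and 0.0514% to 0.0547% in TCR activated cells, and these ranges overlap. With Lars2 the mitochondrial sum was 314, 320.1 and 330.4 FPKM, which overlapped the 292, 344 and 317 FPKM of the libraries without PI3Kdi. In the pairs, the ratio of the cytosolic to the mitochondrial enzyme was lower in every library with PI3Kdi in 4 pairs (Cars, Hars, Nars and Tars), higher in 1 (Wars) and overlapped in 8.

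Removing IL-2 from CTL lowered most of the cytosolic enzymes again. Of the 20, 15 were called lower and 0 higher, where 13.9% of all genes were called lower and 14.3% higher. The median log2 fold change was -1.32, against -9e-04 over all genes. In 18 of 20 enzymes every library without IL-2 was below every library in IL-2, which was so for 38.5% of all genes, and in Qars every library was above, which was so for 37.6%. Other genes moved in the same libraries. The summed level of the 3 naïve cell markers was 82.5 to 104 FPKM in IL-2 and 710.2 to 959.8 FPKM without it. That of the 4 CTL genes was 14622 to 17708 FPKM in IL-2 and 2177 to 2515 FPKM without it. The B cell gene Cd79b was at 2.74 to 6.30 FPKM and at 10.8 to 20.6 FPKM, and the myeloid genes Itgam and Itgax summed to 0.50 to 0.72 FPKM and to 7.59 to 9.27 FPKM. Their part in the results was not tested.

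The largest falls were in Mars, for methionine, and Tars, for threonine. Mars was at 50.9, 55.7 and 55.8 FPKM in IL-2 and at 17.0, 16.1 and 15.6 FPKM without it, 3.32-fold lower (log2 fold change -1.73, SE 0.08, adjusted p = 3e-07). Tars went from 78.5, 83.9 and 93.0 FPKM to 26.2, 26.6 and 23.7 FPKM, also 3.32-fold (log2 fold change -1.73, SE 0.09, adjusted p = 4.6e-07). Nars followed, from 108, 111 and 133 FPKM to 39.2, 39.0 and 38.0 FPKM, and Cars, from 25.0, 28.2 and 33.5 FPKM to 9.32, 9.69 and 9.39 FPKM. Both were 3.01-fold lower. In all 4 the libraries without IL-2 lay close together and far from those in IL-2.

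Iars went from 58.4, 60.6 and 70.0 FPKM to 22.2, 22.5 and 22.6 FPKM, 2.79-fold lower. Rars, for arginine, went from 91.8, 92.7 and 105 FPKM to 35.4, 37.5 and 31.3 FPKM, 2.78-fold lower. Yars was at 45.0, 47.7 and 48.3 FPKM and then at 17.3, 18.7 and 16.9 FPKM. Eprs, the double enzyme for glutamate and proline, went from 79.1, 73.5 and 85.7 FPKM to 30.2, 31.5 and 29.1 FPKM, and Aars from 55.3, 63.0 and 71.1 FPKM to 25.1, 26.1 and 23.6 FPKM.

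Both subunits of the phenylalanyl enzyme fell. Farsa was at 57.7, 64.0 and 63.9 FPKM in IL-2 and at 25.3, 25.9 and 23.9 FPKM without it. Farsb was at 56.5, 53.9 and 60.3 FPKM and at 24.7, 20.8 and 20.9 FPKM. Their log2 fold changes were -1.30 and -1.36 (SE 0.08 and 0.09). Hars went from 84.3, 86.6 and 92.7 FPKM to 37.0, 36.4 and 32.8 FPKM. Gars went from 165, 167 and 191 FPKM to 77.8, 71.4 and 65.1 FPKM, 2.44-fold lower. The smallest of the called falls were in Lars, for leucine, from 46.7, 39.6 and 45.7 FPKM to 19.2, 21.1 and 19.4 FPKM, and in Wars, from 66.7, 65.6 and 66.8 FPKM to 36.0, 32.8 and 27.0 FPKM. Wars was 2.09-fold lower, and without replicate 3 of the group without IL-2 its log2 fold change of -0.95 was under the limit.

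The cytosolic enzymes that were not called lower differed among themselves. Kars, Dars and Sars were lower at an adjusted p under 0.05 by less than 2-fold, with log2 fold changes of -0.76, -0.56 and -0.49. Vars, the valyl enzyme, was at 83.2, 93.9 and 94.0 FPKM in IL-2 and at 82.0, 87.5 and 84.4 FPKM without it, and the groups overlapped (log2 fold change -0.09, SE 0.08, adjusted p = 0.30). Qars was the only cytosolic enzyme that was higher without IL-2, at 83.1, 84.0 and 85.0 FPKM against 63.7, 69.9 and 66.3 FPKM (log2 fold change 0.34, SE 0.07, adjusted p = 0.0019). Vars had risen 2.66-fold on TCR activation, while Qars was the smallest rise of the class.

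Among the mitochondrial enzymes 1 was called lower without IL-2 and 1 higher, where 13.9% and 14.3% of all genes were, and the median log2 fold change was -0.43. Without the limit on the fold change 9 were lower and 4 higher, where 36.6% of all genes were lower and 35.2% higher. Ears2 was at 4.73, 4.99 and 4.80 FPKM in IL-2 and at 2.34, 2.41 and 2.32 FPKM without it, 2.01-fold lower (log2 fold change -1.01, SE 0.12, adjusted p = 5.2e-05). As its fold change lies at the limit, the call was lost with a pseudocount of 1 (-0.80), with median scaling (-0.99), without replicate 2 in IL-2 (-0.99) and without replicate 3 of the group without IL-2 (-1.0). Lars2 was at 98.7, 33.4 and 60.2 FPKM in IL-2 and at 131, 224 and 142 FPKM without it, 2.75-fold higher (log2 fold change 1.46, SE 0.34, adjusted p = 0.0036). The groups of Lars2 did not overlap, but its highest library in IL-2 was close to its lowest library without IL-2. The other enzymes that were higher were Fars2, for phenylalanine, at 0.92, Wars2 at 0.85 and Hars2 at 0.45 on the log2 scale.

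The lower mitochondrial enzymes under 2-fold were Yars2, Rars2, Mars2, Vars2, Nars2, Aars2, Sars2 and Tars2, with log2 fold changes from -0.97 to -0.33. Yars2, the largest rise on activation, went from 12.6, 11.2 and 11.1 FPKM to 6.22, 5.71 and 5.78 FPKM. The summed cytosolic level went from 1590 ± 101 FPKM in IL-2 to 790 ± 25.7 FPKM without it, and the mitochondrial sum without Lars2 from 144 ± 1.76 FPKM to 120 ± 1.99 FPKM (SD, n = 3). With Lars2 the mitochondrial sum went the other way, from 208 ± 32.8 FPKM to 285 ± 51.6 FPKM (SD, n = 3). The ratio of the cytosolic to the mitochondrial sum went from 11.02 ± 0.575 to 6.60 ± 0.303 without Lars2 and from 7.77 ± 1.37 to 2.82 ± 0.461 with it (SD, n = 3). The groups did not overlap in any of these sums and ratios. In the pairs, the ratio of the cytosolic to the mitochondrial enzyme was lower in every library without IL-2 in 11 of 13 pairs. It was higher in 1, Vars with Vars2, at 16.1 to 17.1 against 9.86 to 12.6, and overlapped for Sars with Sars2.

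The enzymes that rose more on activation tended to fall more on IL-2 withdrawal, in comparisons that share no library. Of the 36, 28 had a log2 fold change above 0 on activation and below 0 on withdrawal, 19 of them cytosolic and 9 mitochondrial. Qars, Cars2 and Fars2 were above 0 in both, and Ears2 and Vars2 below 0 in both. Across the 20 cytosolic enzymes the Pearson r between the log2 fold changes was -0.723 and Spearman's rho -0.60, and across the 16 mitochondrial enzymes they were -0.367 and -0.474. The cytosolic enzymes that rose by less than 2-fold, Dars, Sars and Qars, also changed little on withdrawal (-0.56, -0.49 and 0.34). No correlation was taken without them. The correlations given are across genes that share libraries and serve as a description. The share of all genes with these signs and the correlation over all genes are not given here. The counts and correlations of the enzymes therefore cannot be set against genes in general.

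**Figure D5:**
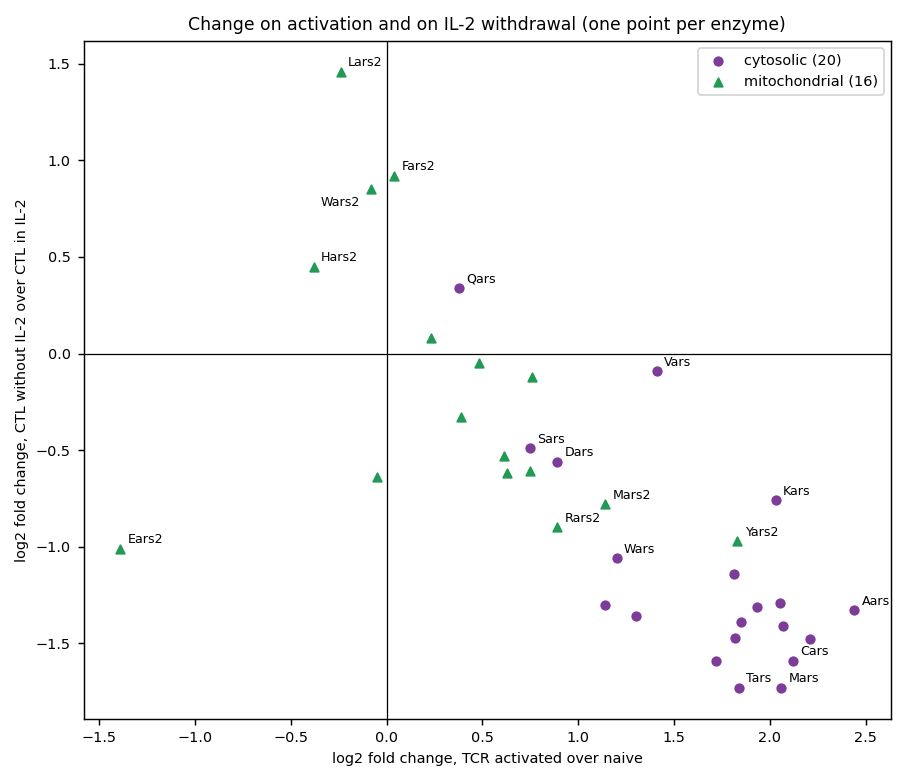
Log2 fold change on TCR activation (horizontal) against log2 fold change on IL-2 withdrawal in CTL (vertical), with 1 point per enzyme, circles for the 20 cytosolic and triangles for the 16 mitochondrial enzymes. Cytosolic points gather at the lower right, with Vars and Qars above them, while Lars2, Fars2, Wars2 and Hars2 lie above 0 on the vertical axis and Ears2 is low on both.

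Other genes of tRNA charging changed in the same comparisons. The counts of this and the following lists stand beside shares over all genes of 25.0% higher and 23.7% lower on activation, 3.04% and 2.1% with PI3Kdi, and 14.3% and 13.9% without IL-2. Of 15 partners of charging that were tested, among them scaffold proteins and tRNA export and maturation factors, 9 were called higher on TCR activation and 0 lower. With PI3Kdi 0 were called, and without IL-2 5 were lower and 0 higher. Of the scaffold proteins of the multisynthetase complex, Eef1e1 rose from 24.8 to 142 FPKM on activation, was at 84.1 FPKM with PI3Kdi (log2 fold change -0.75, SE 0.10) and fell from 56.9 to 10.3 FPKM without IL-2. Aimp2 rose from 26.7 to 108 FPKM, was at 78.9 FPKM with PI3Kdi and fell from 56.8 to 14.6 FPKM without IL-2. Aimp1 rose from 42.3 to 90.6 FPKM and was at 58.8 FPKM in IL-2 and 79.2 FPKM without it, a log2 fold change of 0.43 in the other direction. These are means of 3 libraries.

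Genes known as targets of ATF4 or as part of the amino acid response changed on activation in 20 (higher) and 2 (lower) of 25 tested, with PI3Kdi in 0 and 6 of 25, and without IL-2 in 1 and 20 of 27. Asparagine synthetase, Asns, was at 0.04 FPKM or below in naïve libraries and at 27.8, 8.97 and 9.98 FPKM after TCR activation, where the first library stood far above the others. With PI3Kdi it was at 8.38, 5.28 and 3.52 FPKM, a difference that did not pass the test (log2 fold change -1.32, SE 0.41, adjusted p = 0.0505). In CTL its means were 48.7 FPKM in IL-2 and 6.99 FPKM without it. The amino acid transporter Slc7a5 had means of 18.1, 220.3 and 121 FPKM in the naïve, TCR activated and PI3Kdi groups and of 149 and 17.5 FPKM in CTL with and without IL-2. Atf4 itself had means of 107, 285 and 164 FPKM and of 202 and 72.4 FPKM in the same order. Ddit3, which lies next to Mars on the other strand with 68 bases of overlap, went the other way, lower on activation (18.2 to 4.81 FPKM) and higher without IL-2 (9.85 to 25.4 FPKM).

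Of 9 genes of the MYC network, 2 were called higher and 1 lower on activation, 1 higher and 0 lower with PI3Kdi, and 1 higher and 1 lower without IL-2. Mxd4, a partner of MAX that opposes MYC, was called in all 3: its means were 32.5, 0.407 and 1.46 FPKM in naïve cells, after activation and with PI3Kdi, and 15.2 and 87.2 FPKM in CTL with and without IL-2. Myc rose from 70.6 to 350 FPKM, was at 303 FPKM with PI3Kdi (log2 fold change -0.20, SE 0.14) and fell from 214 to 42.4 FPKM without IL-2. Of 9 cytosolic elongation and termination factors, 4 were higher on activation, 0 changed with PI3Kdi and 3 were lower without IL-2. Of 11 mitochondrial translation factors, 3 were higher on activation, 0 changed with PI3Kdi and 1, Gfm1, was lower without IL-2. The median log2 fold change of the latter was 0.43 on activation and -0.12 without IL-2, beside 0.44 and -0.43 for the mitochondrial synthetases.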

How the data were processed

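RNA sequencing of mouse CD8+ T cells was taken from 2 tables, which the authors deposited as FPKM. According to the methods and the submitters' processing notes, reads were aligned with STAR 2.5.2b to mm10, counted with Subread 1.5.1, normalised in edgeR and divided by exon length. For the CTL table the same steps were assumed. Values have 2 decimals, and blank cells (46 to 252 per library of the first table) were read as 0. The counts themselves were not used here, so limma on log2(FPKM + 0.1) took the place of a count test. No columns of per-sample values were left unused.

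Samples were grouped by title. The treatment labels of CTL replicates 2 and 3 in IL-2 name other interleukins, and these were grouped by title and growth protocol. The 9 libraries of the first table shared a fit in limma 3.58.1 (R 4.3.3) with an intensity trend, as did the 6 CTL libraries, and p-values were adjusted by Benjamini-Hochberg over all genes. The script was tested on simulated data. Gene positions and shared stretches of 75 bases came from GENCODE, and tables were handled in Python 3.11.15 with pandas 2.3.3, numpy 2.4.6 and matplotlib 3.10.9.

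Values per library were given for members called changed with PI3Kdi or without IL-2, for the 4 largest and 2 smallest changes on activation, and for the 2 highest and 2 lowest mean levels in each class. The members and gene lists were chosen with earlier results of these data known. Some genes of these lists and a motif match are not reported here. The main fit held no replicate term, so its p-values are unpaired. Only the setting with the replicate block took same-numbered libraries as paired, in both tables. For the first table the labels state that each pool was divided between the groups, although they do not state that the number marks the pool. Deviations from the group means of same-numbered CTL libraries correlated at 0.123 to 0.257 across genes, against -0.201 to 0.0912 for different numbers. For TCR and PI3Kdi libraries the values were 0.203 to 0.506 for the same number and -0.453 to 0.191 for different numbers. For naïve and TCR libraries they were -0.181 to 0.226 and -0.306 to 0.378, and these ranges overlap. Alternatives were other pseudocounts (1, 0.01), a minimum mean of 1 FPKM, scaling to a common median, the replicate block, no intensity trend, fitting only the groups compared, other limits on the fold change and leaving out each library.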

Additional observations from a re-analysis of the deposited data

How the results depend on the processing

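The calls of the cytosolic enzymes at the limit of 2-fold changed little with the processing. On TCR activation 17 were changed in each setting but median scaling (18) and the other limits on the fold change, and when a library was left out 14 or 15 were changed without IL-2. The replicate block left every count at the limit of 2-fold as it was (17 cytosolic and 3 mitochondrial enzymes on activation), and the only adjusted p-values it moved across 0.05 with PI3Kdi were those of Farsa (0.055) and Hars (0.051). A limit of 1.5-fold called 8 mitochondrial enzymes on activation, 7 for PI3Kdi against naïve cells, 10 without IL-2 and 1 cytosolic enzyme for PI3Kdi against TCR, and no limit called 11, 12, 13 and 9. The share of all genes at 1.5-fold is not given here, so the counts at that limit cannot be set against it. Against the 8 cytosolic enzymes that were lower with PI3Kdi without a limit, the count in the other settings ran from 0 (without replicate 2 of the PI3Kdi group) to 9 (median scaling), with 3 under no intensity trend. Without IL-2 1 mitochondrial enzyme was called with a pseudocount of 1 and with median scaling, and 1 to 3 with a library left out. The median log2 fold change on activation was 1.80 for cytosolic enzymes with a pseudocount of 1 and 1.95 with median scaling (1.80 to 1.85 with a library left out), and 0.56 for mitochondrial enzymes with median scaling. The mitochondrial median for PI3Kdi was -0.06 against TCR with median scaling (-0.06 to 0.01 with a library left out), and against naïve cells 0.40 with a pseudocount of 1 and 0.53 with median scaling (0.40 to 0.49).

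Changes of sign were found in enzymes with differences near 0 or, for Lars2, a wide spread. With median scaling they were Vars2 (0.08) and Wars2 (0.04) on activation, Wars2 (0.03) for PI3Kdi against naïve cells, and Farsb (-0.01), Qars (-0.02) and Wars2 (-0.01) for PI3Kdi against TCR. With a library left out, the log2 fold change on activation ran from -0.05 to 0.14 for Fars2, from -0.54 to 0.14 for Lars2 and from -0.27 to 0.15 for Vars2. For PI3Kdi against TCR it ran from -0.16 to 0.03 for Dars, from -0.03 to 0.08 for Farsb, from -0.02 to 0.06 for Qars, from -0.0 to 0.68 for Lars2, from -0.06 to 0.01 for Nars2 and from -0.1 to 0.01 for Rars2. For PI3Kdi against naïve cells it ran from -0.07 to 0.45 for Lars2. Without IL-2 it ran from -0.03 to 0.19 for Cars2 and from -0.1 to 0.03 for Pars2. The cause was not tested. Read totals are not given in the sources used here, so what depth limits could not be worked out.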
